A study of Homo sapiens with 12 samples.

Results

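The pentose phosphate pathway was followed here through 9 genes of its enzymes, H6PD, PGLS, PGD, RPIA, RPE, TKT, TKTL1, TALDO1 and XYLB, in HepG2 cells, a human hepatocellular carcinoma line, under high and low glucose. The members were chosen by name, as every probe that the platform annotation assigns to one of these symbols. This gave 13 probes of 48803 in the table, for 9 of 18852 genes. RPE had 3 probes, H6PD and TALDO1 had 2 each, and the other members had 1.

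The pathway branches off glycolysis at glucose 6-phosphate. Its oxidative arm yields NADPH, which liver cells spend on lipid synthesis and on keeping glutathione reduced, and ends in ribulose 5-phosphate. Its non-oxidative arm interconverts this sugar with ribose 5-phosphate, the precursor of nucleotides, and with xylulose 5-phosphate, and returns carbon to glycolysis through transketolase and transaldolase. Xylulose 5-phosphate has also been described as a signal that activates ChREBP, the glucose-responsive transcription factor the study was concerned with.

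The 6 high-glucose cultures received 25 mM glucose. For the 6 low-glucose cultures the labels give 2.7 mM and the paper's methods 0 mM, and the files do not settle which is right. According to the methods, all cells were kept in 25 mM glucose as a line, then held in 2.7 mM with serum for 16 h and in the final medium for 8 h. No array was taken before these 8 h, and the labels list no transgene, knockdown or inhibitor for the cultures. The replicates are called biological in the methods, which do not say which cultures shared a day.

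RNA was hybridised to Illumina HumanHT-12 arrays, on which the brightness of a probe reports the level of its transcript. The deposited intensities had nearly the same distribution on every array, as after quantile normalisation. Intensities reached 36779 units, with a median of 90.8 units on each array, so a probe at about this level is near background and its fold change is compressed. Over the brighter probes, pairs within a group had r = 0.992 to 0.996, and pairs across the groups had r = 0.977 to 0.983. Of the hepatocyte markers, 7 of 7 were brighter than 100 units, and 1, the fibrinogen gene FGB, rose. Only 1 of 3 leukocyte, 1 of 3 endothelial and 1 of 3 fibroblast markers exceeded 100 units. Among these, the leukocyte marker CD68 was called lower (log2 change -0.16) and the dim endothelial marker VWF higher (0.20), and their part in the results was not tested. In RNA from whole cultures, fewer cells with a transcript and less of it per cell cannot be told apart.

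Differences in the pathway were small and ran in both directions. RPIA rose in high glucose by 0.31 on the log2 scale, PGLS, RPE and TKT were lower by 0.30, 0.23 and 0.18, and PGD, TALDO1, H6PD, XYLB and TKTL1 did not pass the test. All log2 changes are high minus low glucose, tested with limma over all 48803 probes at an adjusted p under 0.05. Thus 1 of the 13 member probes was called higher, where 8.77% of all probes were, and 3 were called lower, where 7.43% were. No member reached a 1.5-fold change, although 1538 probes of the table did so and passed. The median log2 change was -0.08 over the member probes and 0.00027 over all probes. Taking 1 probe a gene, 1 of 9 members was called higher and 3 were called lower, against 16.6% and 13.3% of all genes. Calls depend on brightness, since 37.1% of all probes with a mean over 100 units were called and 1.35% of the others. Of the members' probes, 4 of 9 brighter ones and 0 of 4 dimmer ones were called, with the second TALDO1 probe only just over this line.

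**Figure D1:**
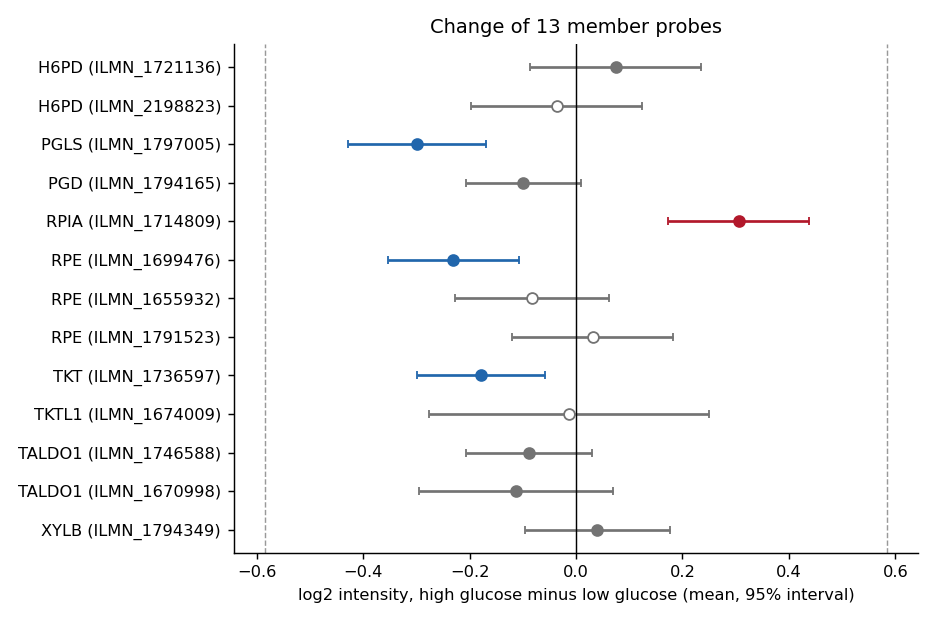
Log2 change of each of the 13 member probes, high minus low glucose (x axis, log2 units), with 95% intervals from limma. Red marks the probe called higher, blue the 3 called lower and grey the others, open points have a mean intensity of at most 100 units, and dashed lines mark 1.5-fold. No interval reaches the dashed lines.

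Of the oxidative enzymes, PGLS, the 6-phosphogluconolactonase that opens the lactone ring, was lower in high glucose. Its intensity ran from 2018 through a median of 2178 to 2385 units on the high-glucose arrays, and from 2427 through a median of 2634 to 3099.5 units on the low-glucose arrays. All 6 high-glucose arrays therefore lay below all 6 low-glucose arrays, a separation in this direction that 4.84% of all probes showed. The means were 2181 ± 119 units in high glucose and 2689.7 ± 242 units in low glucose (SD, n = 6 each; log2 change -0.30, standard error 0.06, adjusted p = 0.00081 by limma).

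PGD, the 6-phosphogluconate dehydrogenase that releases carbon dioxide and makes NADPH, had a difference of the same sign that did not pass the test. Its values ran from 7107 through a median of 7562 to 8309 units in high glucose, and from 7574 through a median of 8316 to 9051 units in low glucose. The groups overlapped, with 3 of the 6 high-glucose arrays below the lowest low-glucose array. The log2 change was -0.10, with a 95% interval of -0.21 to 0.01 (adjusted p = 0.27 by limma), or -13.4% to 0.67% of the low-glucose level.

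H6PD encodes the hexose-6-phosphate dehydrogenase of the endoplasmic reticulum, which carries out the early oxidative steps in that compartment and supplies NADPH to a steroid reductase. On its brighter probe it ran from 196 through a median of 218 to 224 units in high glucose, and from 179 through a median of 201 to 239 units in low glucose. The high-glucose arrays lay inside the range of the low-glucose arrays (log2 change 0.07, 95% interval -0.09 to 0.24, adjusted p = 0.67 by limma). Its other probe stayed between 72.8 and 95.6 units in high glucose and between 76.8 and 92.0 units in low glucose, close to the median of the table.

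**Figure D2:**
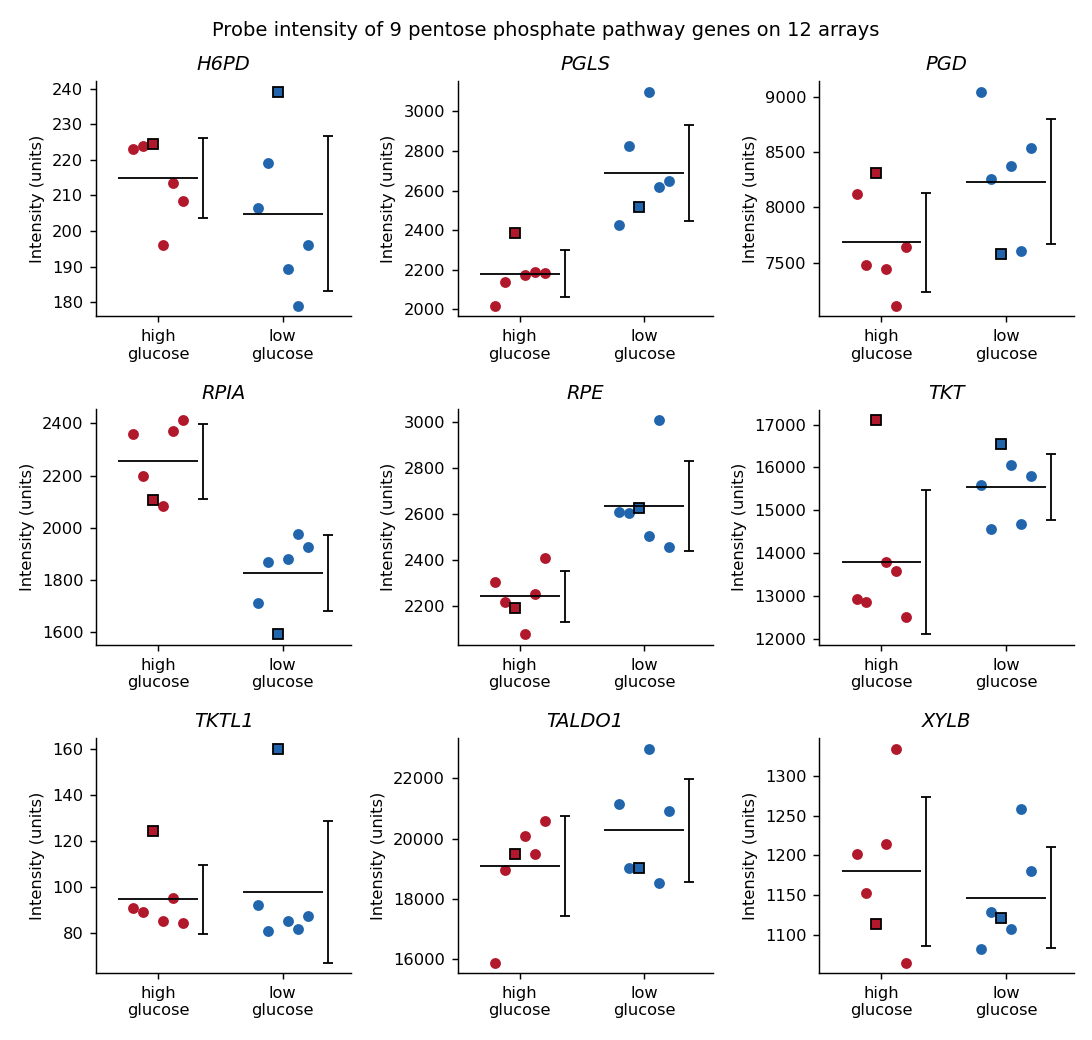
Intensity (y axis, units, not starting at 0) of the brightest probe of each of the 9 genes on the 6 high-glucose (red) and 6 low-glucose (blue) arrays. Horizontal lines are means, bars beside them are the SD, and squares are the third replicates. RPIA lies higher and PGLS and RPE lie lower in high glucose with no overlap, while the other genes overlap.

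The 2 enzymes that draw on ribulose 5-phosphate differed in direction. RPIA, the isomerase that makes ribose 5-phosphate, ran from 2082 through a median of 2278 to 2412 units in high glucose. In low glucose it ran from 1593 through a median of 1876 to 1976 units. Every high-glucose array was above every low-glucose array, which held in this direction for 5.67% of all probes. The means were 2255 ± 144 units in high glucose and 1826 ± 145 units in low glucose (SD, n = 6 each; log2 change 0.31, standard error 0.06, adjusted p = 0.00082 by limma), a 1.24-fold difference with a 95% interval of 12.7% to 35.5% above low glucose.

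RPE, the epimerase that makes xylulose 5-phosphate from the same sugar, went the other way on its brightest probe. It ran from 2079 through a median of 2235 to 2409 units in high glucose, and from 2455 through a median of 2607 to 3006 units in low glucose. Again the groups did not overlap, here with high glucose below low glucose. The means were 2243 ± 111 units in high glucose and 2634 ± 194 units in low glucose (SD, n = 6 each; log2 change -0.23, standard error 0.06, adjusted p = 0.0060 by limma). The call rests on this probe, because the 2 others, at 70.7 to 89.6 units in high glucose and 65.8 to 91.7 units in low glucose, were near background and had log2 changes of -0.08 and 0.03 (adjusted p = 0.57 and 0.88 by limma). The platform annotation gives the brightest probe and the dim probe at -0.08 the same transcript, and why their brightness differs was not tested. With the log2 values of its 3 probes averaged, RPE no longer passed (log2 change -0.09, adjusted p = 0.24). The current annotation also lists 6 pseudogenes of RPE by symbol, 2 of PGD, and 1 each of RPIA and TALDO1, and whether the probes read them was not tested.

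Within each array, log2 RPIA minus log2 RPE averaged 0.0069 ± 0.04 in high glucose and -0.53 ± 0.14 in low glucose (SD, n = 6 each), a difference of 0.54. Only this difference can be read, since the probes differ in brightness for other reasons than RNA level. The lowest high-glucose array was at -0.06 and the highest low-glucose array at -0.35, a separation that follows from the separation of each gene and adds nothing to it. The pair was chosen after its values were seen, and no test of it is given.

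**Figure D3:**
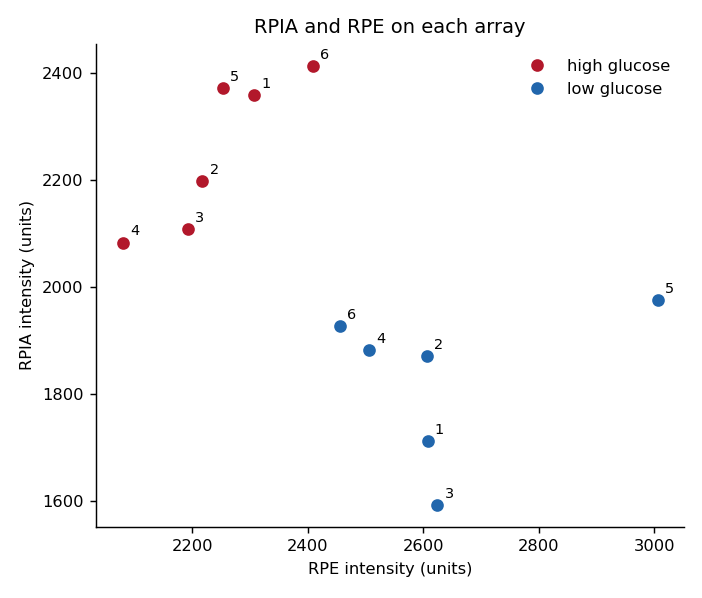
RPIA intensity (y axis, units) against RPE intensity (x axis, units, brightest probe) on each array, with high glucose in red, low glucose in blue and the replicate number beside each point. Neither axis starts at 0. The high-glucose arrays lie above and to the left of the low-glucose arrays, with no overlap on either axis.

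The promoter sequences of these oppositely changed genes are shown for comparison, as the 250 bases before the annotated start, from RefSeq on GRCh38.p14. Both lie on the plus strand, RPIA at chr2:88691423-88691672 and RPE at chr2:210002388-210002637. Capitals mark matches, on either strand, to any of 3 motifs. The antioxidant response element, bound by NRF2, a factor of the oxidative stress response, was searched as TGACNNNGC. The GC box was searched as GGGCGG. The letters of the CCAAT box are its name. Matches to different motifs did not overlap in either window, but 2 GC boxes of RPE share bases and form 1 run.
RPIA: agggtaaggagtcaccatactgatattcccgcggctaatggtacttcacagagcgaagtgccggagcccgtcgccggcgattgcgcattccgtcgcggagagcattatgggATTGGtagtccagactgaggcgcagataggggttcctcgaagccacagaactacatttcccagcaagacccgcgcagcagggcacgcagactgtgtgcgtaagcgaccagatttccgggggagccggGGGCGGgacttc
RPE: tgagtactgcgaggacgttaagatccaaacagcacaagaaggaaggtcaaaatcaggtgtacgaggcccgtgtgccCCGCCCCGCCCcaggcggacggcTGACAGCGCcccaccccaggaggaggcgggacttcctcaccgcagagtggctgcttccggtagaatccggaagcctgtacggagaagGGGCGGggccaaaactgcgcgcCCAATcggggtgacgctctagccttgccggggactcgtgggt

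RPIA thus held 1 GC box and 1 CCAAT box, whereas RPE held 3 GC boxes, 1 CCAAT box and 1 antioxidant response element. A GC box occurred in 42.6%, a CCAAT box in 32.0% and an antioxidant response element in 10.9% of the 35116 promoter windows of this length. In all, the 9 genes have 10 windows, of which 6 held a GC box, 5 a CCAAT box and 3 an antioxidant response element. No member window held the E-box CACGTG, which 6.34% of all windows did. None held the paper's ChBM1, a paired E-box motif of ChREBP, which 0.0997% of all windows did. ChBM1 was searched by its exact consensus letters, a stricter match than the paper's motif scan of its peaks with a p-value cutoff. At so low a share, its absence from 10 windows says little. A match is only a run of letters, and absence from this window says nothing about binding elsewhere.

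The 3 antioxidant response elements are shown with 10 bases on either side so that the letters around the matches can be compared. They lie at chr1:10398853-10398881 (minus strand) for PGD, chr2:210002477-210002505 (plus strand) for RPE and chr3:38346561-38346589 (minus strand) for XYLB, with the match in capitals.
PGD: agcacctagaTGACATTGCcccggcgagg
RPE: ggcggacggcTGACAGCGCcccaccccag
XYLB: ggccgtgcccTGACACCGCctggcttccc

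Of these genes RPE was called lower in high glucose, while PGD and XYLB did not pass the test, and differences between the genes were not tested.

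TKT encodes transketolase, the thiamine-dependent enzyme that moves carbon pairs between sugar phosphates. In high glucose it ran from 12503 through a median of 13254 to 17103.5 units, and in low glucose from 14563.5 through a median of 15702 to 16541.5 units. High-glucose replicate 3 was the brightest of all 12 arrays, and the other 5 high-glucose arrays were below every low-glucose array. The means were 13794 ± 1689 units in high glucose and 15543 ± 779 units in low glucose (SD, n = 6 each; log2 change -0.18, standard error 0.06, adjusted p = 0.035 by limma). This call was fragile. It was lost when any 1 of 9 arrays was left out, namely high-glucose replicate 1, 2, 4, 5 or 6 or low-glucose replicate 1, 3, 4 or 6 (adjusted p = 0.057 to 0.10 by limma). Without high-glucose replicate 3 the log2 change was -0.24 (adjusted p = 3e-04 by limma).

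TKTL1, a transketolase-like gene studied mostly in testis and tumours, was close to background. Its intensity ran from 84.4 through a median of 90.1 to 124 units in high glucose, and from 81.0 through a median of 86.3 to 159.9 units in low glucose. In both groups replicate 3 stood above the rest, at 124 units in high and 159.9 units in low glucose, and replicate 3 was also the brightest array of each group for TKT. Whether the TKTL1 probe reads TKT transcripts was not tested. No difference between the groups was detectable (log2 change -0.01, 95% interval -0.28 to 0.25, adjusted p = 0.97 by limma), and this interval was the widest among the 13 probes.

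TALDO1, the gene of transaldolase, which works beside transketolase, ran on its brighter probe from 15866.5 through a median of 19482 to 20599 units in high glucose. In low glucose it ran from 18517 through a median of 19982 to 22991 units. The groups overlapped, and high-glucose replicate 1 alone lay below the low-glucose range (log2 change -0.09, 95% interval -0.21 to 0.03, adjusted p = 0.41 by limma). The other TALDO1 probe was dim, with means of 96.2 ± 7.37 units in high glucose and 104.7 ± 15.5 units in low glucose (SD, n = 6 each; adjusted p = 0.52 by limma).

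XYLB encodes xylulokinase, which phosphorylates xylulose from the glucuronate route and so feeds the pathway from outside. It ran from 1065 through a median of 1177 to 1335 units in high glucose, and from 1082 through a median of 1125 to 1258.5 units in low glucose. The ranges overlapped for all but 1 high-glucose array above and 1 below the low-glucose arrays (log2 change 0.04, 95% interval -0.10 to 0.18, adjusted p = 0.81 by limma).

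Genes that neighbour the pathway were counted from lists of textbook members, with 1 probe a gene and adjustment over 18852 genes. All the lists, the NRF2 targets below included, were chosen with earlier results of these data known. Of the 11 measured genes of ribose and pentose use, 4 rose, 2 fell and 5 did not pass the test, with a median log2 change of 0.05. Of all genes, 16.6% were called higher and 13.3% lower, and the counts in this list and those that follow are to be read beside these shares. These shares are a low yardstick for bright genes, since 37.1% of all probes over 100 units were called in either direction. Over 100 units were 10 of 11 genes of this list, and 4 of 4, 8 of 9 and 11 of 12 of those that follow. SHPK, the gene of sedoheptulokinase, which makes the pathway intermediate sedoheptulose 7-phosphate from the free sugar, rose most, to 4100.4 ± 209 units in high glucose against 2716 ± 233 units in low glucose (SD, n = 6 each; log2 change 0.60, adjusted p = 2.4e-09 by limma), the only change of this list past 1.5-fold. Chosen after their values were seen, PRPS2 and PRPS1, whose products turn ribose 5-phosphate into the precursor of nucleotides, rose by 0.45 and 0.16 on the log2 scale (adjusted p = 5.5e-06 and 0.020 by limma). IDNK, a gluconokinase gene, had a log2 change of -0.49 and PGM2, the gene of a phosphopentomutase, one of -0.34 (adjusted p = 1.7e-06 and 0.0013 by limma), a choice likewise made from their values.

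Of the 4 measured genes of the glucuronate to xylulose route, which leads to XYLB, 1 rose and 1 fell. These were DCXR, the xylulose reductase gene (log2 change 0.23), and UGDH, the UDP-glucose dehydrogenase gene (-0.23), singled out once their values were known. Of 9 genes of other enzymes that make NADPH, 1 rose and 1 fell, with a median log2 change of 0.03. They were ME3, a mitochondrial malic enzyme gene (0.30, adjusted p = 0.044 by limma), and ALDH1L1, a folate enzyme gene (-0.58, adjusted p = 7.2e-09 by limma), again singled out with their values known.

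PGD, TKT and TALDO1 are counted among the targets of NRF2 in human cancer cells. Of 12 other NRF2 target genes measured, 10 fell and none rose, with a median log2 change of -0.99, and 7 fell by at least 1.5-fold. HMOX1, GCLM, GCLC and SRXN1, genes of heme breakdown, glutathione synthesis and peroxiredoxin repair, had log2 changes of -2.71, -2.06, -1.67 and -1.64. NQO1, a quinone reductase gene at 14028 ± 868 units in high glucose and 13291 ± 1006 units in low glucose (SD, n = 6 each), did not pass (log2 change 0.08, adjusted p = 0.35 by limma) and was named after its value was seen. Beside these, in the same fit of 1 probe a gene, the lower 95% limits of PGD, TKT and TALDO1 were -0.21, -0.31 and -0.22 on the log2 scale. The lists and members were set side by side, and no test between them was made.

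**Figure D4:**
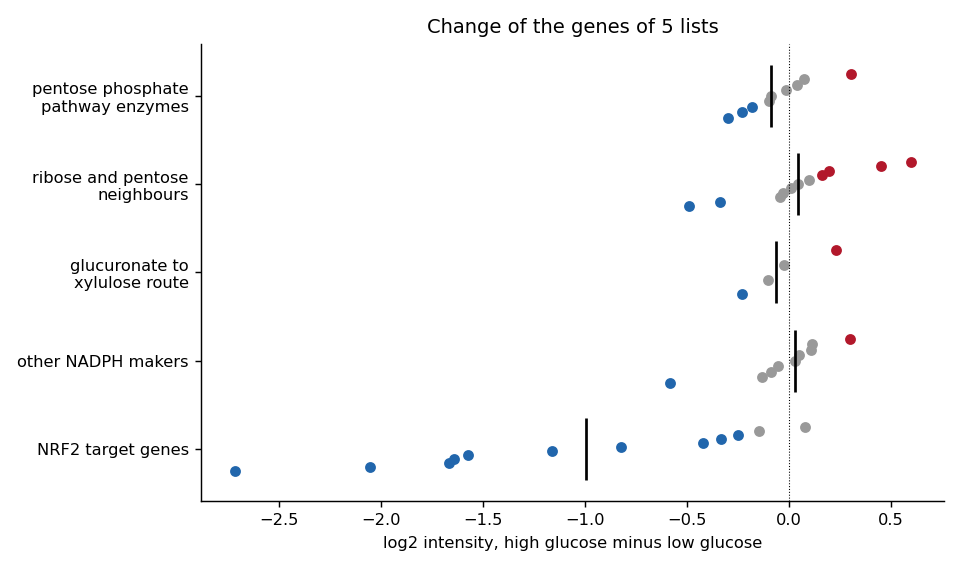
Log2 change, high minus low glucose (x axis, log2 units), of the genes of 5 lists by their brightest probe, with red for genes called higher, blue for genes called lower, grey for the others and a black bar at each list's median. The 9 pathway genes stay within 0.31 of 0, while NRF2 target genes reach -2.71.

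The genes whose intensities over the 12 arrays were most like those of RPIA, the called member with the largest change, were IST1 (Pearson r = 0.967), ANAPC5 (0.961), SCO1 (0.947), CISD1 (0.943) and SLC27A2 (0.941). These are descriptions over arrays of 2 groups and carry no test, as RPIA and all 5 genes were higher in high glucose, by 0.22 to 0.32 on the log2 scale for the 5 genes. With the group means removed, r over the same 12 arrays was 0.791 to 0.896. As the 5 genes were picked by their r on these arrays, this range is raised by the selection.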

How the data were processed

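Total RNA of 12 HepG2 cultures was amplified, biotinylated and hybridised to Illumina HumanHT-12 BeadChips. The deposited intensities are linear probe values that the authors normalised with limma, and the submitters' processing notes name GenomeStudio 2010.1. Sorted intensities differed by at most 0.825 units between arrays, as after quantile normalisation. Background subtraction and probe filters are not given in the sources used here, nor are slides or scan dates, so no batch was tested. A second table of signals and detection p-values has 24 columns whose names match no sample, so it was not used and no detection limit per probe could be set.

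Gene names came from the platform annotation (28098 with 1 gene symbol, 13 with several, 20692 with none), with symbols updated by gene ID. No member probe was found under an older symbol. High was set against low glucose on log2 intensities by limma 3.58.1 (R 4.3.3), using moderated variances that follow a trend on mean level and no replicate block. Benjamini-Hochberg adjustment ran over all probes or, for lists, over 18852 genes by their brightest probe. The limma fit over all probes and the Cyber-T style test, used below as an alternative, were tried on simulated data. The number of arrays limits the precision (median SD within groups 0.13 on the log2 scale). Each p-value weighs a group difference against the moderated spread between these cultures, and which of them shared a day is not known. Members and lists were chosen with earlier results of these data known. Every member probe is reported. Of the lists, called genes past 1.5-fold, up to 4 a list, are named, with exceptions marked. Alternatives were log2(intensity + 16), normexp correction with offset 16, an intensity filter, another centring, a regularised test after Cyber-T (window of 101 probes and prior weight of 10), no trend, a replicate block, array weights, each array left out, stricter thresholds, and gene values from the mean of the probes. Figures were drawn with matplotlib 3.10.9.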

Additional observations from a re-analysis of the deposited data

Results flagged for a closer look

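In all, 5 values stood apart from the rest of their group of 6 arrays by Dixon's criterion, of 26 groups of member probe values examined, where chance marks about 1 group in 20. They were TKT on high-glucose replicate 3 (17103.5 units, the next at 13782), TKTL1 on high-glucose replicate 3 (124 units, the next at 95.1) and on low-glucose replicate 3 (159.9 units, the next at 92.2), RPE on low-glucose replicate 5 (3006 units on its brightest probe, the next at 2624) and TALDO1 on high-glucose replicate 1 (15866.5 units, the next at 18960.2). Of these 5 values, 3 belong to replicate 3 of a group and to the transketolase genes. Over all probes brighter than 100 units, the deviations of the 2 arrays numbered 3 from their group means correlated at r = 0.0025. Without replicate 3 of both groups, an alternative added after the data were seen, TKT had a log2 change of -0.22 (adjusted p = 0.0011 by limma) and TKTL1 one of 0.06 (adjusted p = 0.77). Without low-glucose replicate 5, RPE kept a log2 change of -0.19 (adjusted p = 0.018 by limma).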

How the results depend on the processing

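RPIA, PGLS and the brightest RPE probe kept direction and call under every alternative of test, scale, background, filter, centring, block, weights or left-out array and at an adjusted p under 0.01, with adjusted p of 0.00019 to 0.0035, 2e-04 to 0.0034 and 0.0015 to 0.024 by limma or the Cyber-T style test. With a 1.5-fold minimum, 0 member probes were called higher and 0 lower, against 700 and 838 probes of the table. The TKT call was also lost without a variance trend (adjusted p = 0.12) and at the 0.01 threshold. With each array left out, 1 member probe was called higher and 2 to 3 lower, and 3983 to 4189 and 3375 to 3596 of all probes. The sign turned only for dim probes that did not pass: TKTL1 (0.0015 with normexp, 0.06 without replicate 3 of both groups, -0.094 to 0.14 with an array left out) and the dimmest RPE probe (-0.014 to 0.072 with an array left out). Deviations of arrays with the same replicate number correlated at -0.06 to 0.02, so no effect shared by number was seen. Cultures handled in pairs need not leave such an effect, so whether the numbers pair the cultures stays unknown. With the replicate block, 4187 probes were called higher and 3573 lower, 1 and 3 of them members. Brightness near background limits what 5 of the 13 member probes can show, namely TKTL1, the second H6PD and TALDO1 probes and the 2 dim RPE probes.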
